A study of Homo sapiens with 6 samples.

Results

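The EGF receptor family was followed through 8 genes, taken by name from the rows of the deposited expression table. They were the receptors EGFR, ERBB2 and ERBB3, the ligands AREG (amphiregulin), EREG (epiregulin), HBEGF (heparin-binding EGF-like growth factor) and TGFA (transforming growth factor alpha), and the receptor inhibitor ERRFI1. All 8 were found once each among 27238 rows, and all 8 passed the filter for testing (a mean of at least 1 FPKM over the 6 libraries), as did 11016 rows in all. FPKM are fragments per kilobase of transcript scaled to the mapped fragments of the library, so levels of different genes can be set side by side. The cells were QBC-939, a human line that the labels give as cholangiocarcinoma (cancer of the bile duct). One group of 3 libraries came from cells that received a scrambled shRNA, called control here, and another of 3 from cells that received a Bmi1 shRNA, both harvested at 48 h, and the design text also calls the control reagent an siRNA. The design text speaks of independent transfections of this single line, so that p-values measure the spread between those transfections.

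Receptors of this family are tyrosine kinases of the cell surface. A ligand, made as a membrane-bound precursor and cut free by a protease, brings receptors together in pairs, and the paired kinases then drive the RAS to ERK and the PI3K to AKT relays. EGFR binds AREG, EREG, HBEGF and TGFA, ERBB2 has no known ligand of its own and acts as a partner, and ERBB3 has a weak kinase and passes signals through its partner. Epithelia of the bile duct and of the gut carry these receptors and make several of the ligands.

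BMI1, the target of the shRNA, measured 6.65, 5.34 and 6.09 FPKM under the scrambled shRNA and 1.49, 1.19 and 2.65 FPKM under the Bmi1 shRNA. It was lower in 3 of 3 Bmi1 shRNA libraries, at 29.5% of control (limma, adjusted p = 0.00162). By exact permutation, two-sided, p was 0.1, which is as low as a design of 3 and 3 goes. The FPKM of a library summed to between 332910 and 341268 in the control group and between 352800 and 360371 in the Bmi1 shRNA group. The number of reads behind each value is unknown, since steps of whole reads could not be recovered. Of 8 markers of simple epithelium, all 8 passed the filter, with KRT18 at 840.0 and KRT19 at 287 FPKM in the control libraries, while the bile duct keratin KRT7 stood at only 2.74 FPKM. Summed markers of fibroblasts, of which 3 of 6 are in the table, stayed at or under 0.445 FPKM in every library. Those of endothelium, with 2 of 4 in the table, stayed at or under 0.036 FPKM. Of 6 adipocyte genes, 2 are in the table. They summed to 1.57 to 1.98 FPKM in the control and 1.23 to 1.37 FPKM in the Bmi1 shRNA libraries. The epithelial list summed to 1810 to 1970 FPKM in the control and 1540 to 1770 FPKM in the Bmi1 shRNA libraries, and KRT18 and KRT19 fell. The hepatocyte list, of which 3 of 5 genes are in the table, summed to 5.84 to 7.01 and 17.6 to 19.7 FPKM, nearly all of it TTR. The part of either in the results on the ERBB genes was not tested. LYZ, which stood in the leukocyte list, averaged 1470 FPKM in the control libraries. CD68, a macrophage marker that other cells also carry in lysosomes, went from 11.5 to 7.53 FPKM (adjusted p = 0.00198), and CSF1R, the macrophage growth factor receptor, was under 0.1 FPKM everywhere. Their part in the results was not tested either.

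Promoter windows were matched in RefSeq for 7 of the 8 members. A set of 4 is printed here, of the most abundant ligands, AREG and EREG, and of the members that stood lowest relative to control, EGFR and ERRFI1. Each is the 250 bases before the start, 5′ to 3′ on the gene's strand, in GRCh38.p14, and capitals mark 3 motifs searched on both strands: the cAMP response element TGACGTCA, the TATA box TATAAA and the GC box GGGCGG. The AP-1 site TGACTCA was also searched.
AREG, chr4:74444886-74445135, forward strand: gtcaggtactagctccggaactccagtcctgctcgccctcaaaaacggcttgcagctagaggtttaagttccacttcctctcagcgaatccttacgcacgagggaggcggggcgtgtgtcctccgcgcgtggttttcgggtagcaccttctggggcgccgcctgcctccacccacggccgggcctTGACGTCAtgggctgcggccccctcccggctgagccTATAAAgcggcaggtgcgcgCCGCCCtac
EREG, chr4:74364895-74365144, forward strand: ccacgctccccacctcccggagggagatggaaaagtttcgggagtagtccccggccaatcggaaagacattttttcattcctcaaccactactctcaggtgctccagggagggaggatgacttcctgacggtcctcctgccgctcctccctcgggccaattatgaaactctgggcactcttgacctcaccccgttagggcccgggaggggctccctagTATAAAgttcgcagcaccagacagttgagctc
EGFR, chr7:55018767-55019016, forward strand: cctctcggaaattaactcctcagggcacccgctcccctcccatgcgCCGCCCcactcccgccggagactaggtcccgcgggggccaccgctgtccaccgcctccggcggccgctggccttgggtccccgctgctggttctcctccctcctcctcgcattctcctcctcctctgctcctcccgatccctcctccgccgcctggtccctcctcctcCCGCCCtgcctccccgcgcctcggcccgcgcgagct
ERRFI1, chr1:8026310-8026559, reverse strand: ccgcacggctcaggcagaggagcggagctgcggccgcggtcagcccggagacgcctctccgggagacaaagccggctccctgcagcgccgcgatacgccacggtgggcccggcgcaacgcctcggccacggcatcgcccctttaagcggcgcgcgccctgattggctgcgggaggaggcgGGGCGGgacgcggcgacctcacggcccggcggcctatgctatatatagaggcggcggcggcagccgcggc

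The AREG window held 1 cAMP response element, whose first base lay 65 bases before the start, a TATA box 29 bases before it and a GC box 9 bases before it. The EREG window held a TATA box 32 bases before the start and none of the other motifs. The EGFR window held 2 GC boxes and the ERRFI1 window 1. The AP-1 letters occurred in none of these 4 windows, but 2 times in a further EGFR window of RefSeq, at another start. Over all 35116 windows of the same length, 1.65% held the cAMP response element, 10.7% the TATA box, 42.6% the GC box and 4.2% the AP-1 site. A match describes the letters of the window and no binding was measured.

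Of the 8 members, 7 were lower with the Bmi1 shRNA, 0 were higher and AREG did not pass (limma on log2(FPKM + 1), p adjusted by Benjamini-Hochberg over all tested rows and under 0.05). Of all tested rows, 28.5% were called lower and 28.6% higher, 57.1% in all. The members were chosen with earlier results of these data known, so their count is a description only. BTC, a ligand of the family outside the 8, was called higher (log2 fold change 0.27; limma, adjusted p = 0.0283). The Bmi1 shRNA libraries all lay below the control libraries for 7 members, against 33.1% of tested rows. In bulk RNA, fewer cells that express a gene and less of its RNA per cell cannot be told apart. The median log2 fold change of the members was -0.45, against -0.02 over all tested rows. The 3 receptors and the inhibitor ERRFI1 stood at 52.1% to 70.8% of control, and the ligands spread from 62.1% for HBEGF to 98.8% for AREG. Without control replicate 2, 4 members were called (EGFR, ERBB2, TGFA and ERRFI1), with 2484 of 11016 tested rows called lower and 2742 higher. When any other library was left out, 5 to 6 members were called, with 2545 to 3140 rows lower and 2724 to 2982 higher.

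**Figure D1:**
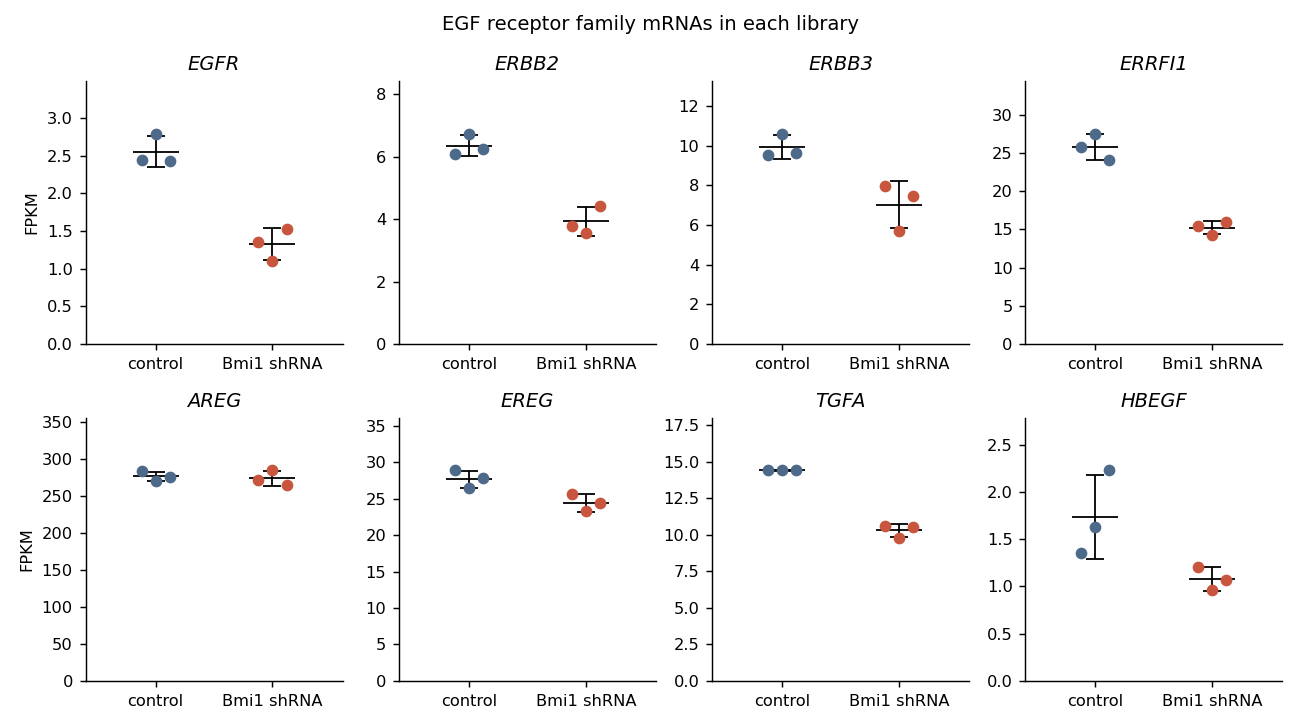
FPKM of the 8 members in each library (points), with the mean (long bar) and SD (capped line) of the 3 control and the 3 Bmi1 shRNA libraries and each axis starting at 0. The groups are apart for 7 genes and overlap for AREG, which stands at 277 and 274 FPKM.

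The receptors were the least abundant products after HBEGF and all 3 fell. EGFR measured 2.44, 2.79 and 2.43 FPKM under the scrambled shRNA and 1.36, 1.10 and 1.53 FPKM under the Bmi1 shRNA. Every Bmi1 shRNA library was below every control library, and the mean went from 2.55 ± 0.206 to 1.33 ± 0.216 FPKM (SD, n = 3 each), with a log2 fold change of -0.61 and a standard error of 0.0899 (limma, adjusted p = 0.00194). Because of the pseudocount of 1, that fold change understates the fall of a gene at this level. The gene (ENSG00000146648.17) spans chr7:55019021-55211628 on the forward strand in GRCh38 (GENCODE 29). The antisense gene EGFR-AS1, which overlaps 9185 bases of that span, is not analysed here, and without known strand its reads cannot be told from those of EGFR.

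ERBB2, the receptor that pairs with the others, measured 6.09, 6.74 and 6.26 FPKM under the scrambled shRNA and 3.78, 3.57 and 4.44 FPKM under the Bmi1 shRNA. The groups did not overlap, and the mean fell to 61.7% of control (log2 fold change -0.58, standard error 0.083; limma, adjusted p = 0.00175). ERBB2 (ENSG00000141736.13) lies at chr17:39687914-39730426 on the forward strand, and its span overlaps by 8884 bases with that of PGAP3 and by 1931 bases with that of MIEN1, both on the opposite strand. These 2 neighbours went opposite ways: PGAP3, an enzyme that remodels GPI anchors, fell from 11.1 ± 0.244 to 8.48 ± 0.365 FPKM, and MIEN1, a small membrane-bound protein, rose from 28.1 ± 2.15 to 35.7 ± 0.448 FPKM (SD, n = 3 each). Neither was called with the trend in GC content and length removed, at log2 fold changes of -0.09 and 0.18 (adjusted p = 0.187 and 0.0702). The strand setting of the counting is unknown, so reads in the shared stretches are uncertain for all 3 genes. Further out in the same band, CDK12, a kinase of transcription elongation, fell to 68.0% of control (adjusted p = 0.0043). GRB7, an adaptor that binds ERBB2, stood at 10.7 ± 1.36 and 9.65 ± 0.737 FPKM and did not pass (adjusted p = 0.309). PPP1R1B, STARD3, IKZF3 and MED1 did not pass either. Exceptions were STARD3 without Bmi1 shRNA replicate 1 (adjusted p = 0.048) and with total scaling (0.0389), IKZF3 with quantile normalization (0.031) and PPP1R1B with the trend removed and the replicate block (0.0297).

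ERBB3, the receptor with the weak kinase, was the most abundant of the 3. It measured 9.53, 10.6 and 9.65 FPKM under the scrambled shRNA and 7.97, 5.68 and 7.45 FPKM under the Bmi1 shRNA. No library of one group reached the other, though Bmi1 shRNA replicate 2 stood well below the other 2 of its group. The mean went from 9.93 ± 0.598 to 7.03 ± 1.20 FPKM (SD, n = 3 each; log2 fold change -0.45; limma, adjusted p = 0.0166). The call ended without control replicate 2 (adjusted p = 0.0556). ERBB3 (ENSG00000065361.15) lies at chr12:56076799-56103505 on the forward strand. It shares 2175 bases with the protein-coding gene AC034102.2 on the same strand, not analysed here, so reads in that stretch are uncertain. The remaining receptor, ERBB4, was near 0, with at most 0.0125 FPKM in any library. Summed over EGFR, ERBB2 and ERBB3, the receptors held 18.9 ± 1.14 FPKM in the control and 12.3 ± 1.69 FPKM in the Bmi1 shRNA libraries.

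ERRFI1, also known as MIG6, is made in response to receptor signalling and binds the EGFR kinase to switch it off. It measured 25.7, 27.5 and 24.1 FPKM under the scrambled shRNA and 15.4, 14.2 and 15.9 FPKM under the Bmi1 shRNA. The groups lay far apart, and ERRFI1 stood at 58.9% of control (log2 fold change -0.73, standard error 0.0713; limma, adjusted p = 0.000552). On the log2(FPKM + 1) scale this was the largest of the 8 members, but EGFR stood lower as a percentage of control and, with a pseudocount of 0.1, had -0.90 against -0.76 for ERRFI1. It stood at percentile 2.7 of fold changes over tested rows. ERRFI1 (ENSG00000116285.12), which shares 909 bases with the antisense gene AL034417.4, not analysed here, lies at chr1:8004404-8026308 on the reverse strand. Of its tested neighbours in that band, PARK7, which protects against oxidative stress, rose to 1.26-fold, and RERE, a transcriptional corepressor, fell to 0.704-fold. With the trend in GC content and length removed both turned sign and neither was called (log2 fold change -0.15 for PARK7 and 0.01 for RERE; adjusted p = 0.0617 and 0.894). The ratio of ERRFI1 to EGFR was 10.1 ± 0.386 in the control and 11.5 ± 1.27 in the Bmi1 shRNA libraries, and the groups overlapped.

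AREG, a ligand of EGFR alone, was by far the most abundant member, at a level above that of 98.5% of tested rows. It measured 284, 271 and 276 FPKM under the scrambled shRNA and 272, 285 and 265 FPKM under the Bmi1 shRNA. The groups overlapped fully, the log2 fold change was -0.02 with a 95% confidence interval from -0.13 to 0.10, and the gene was not called (limma, adjusted p = 0.777). That interval holds none of the fold changes of EGFR, ERBB2, TGFA or ERRFI1 on the deposited values. After removal of a trend with transcript GC content and length, which is described further on, AREG was called lower, with a log2 fold change of -0.43 (limma, adjusted p = 0.000672). It was also called lower with quantile normalization (log2 fold change -0.15; adjusted p = 0.0328). Its gene (ENSG00000109321.10) lies at chr4:74445134-74455009 on the forward strand.

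EREG, a ligand of EGFR and ERBB4, lies 56382 bases upstream of AREG, at chr4:74365143-74388751 on the same strand (ENSG00000124882.3). It measured 28.9, 26.5 and 27.8 FPKM under the scrambled shRNA and 25.6, 23.3 and 24.4 FPKM under the Bmi1 shRNA. The groups were apart by a narrow margin, and the mean went from 27.7 ± 1.18 to 24.4 ± 1.19 FPKM (SD, n = 3 each; log2 fold change -0.18; limma, adjusted p = 0.0457). The call was at the edge of the threshold and was lost when any 1 library but Bmi1 shRNA replicate 1 was left out (adjusted p up to 0.127), with upper quartile scaling (adjusted p = 0.117) and with the replicate number as a block (adjusted p = 0.0598). With the trend in GC content and length removed, its fold change was larger, at -0.64 (limma, adjusted p = 0.000845). The ratio of AREG to EREG was 9.99 ± 0.212 in the control and 11.2 ± 0.893 in the Bmi1 shRNA libraries.

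TGFA, another ligand of EGFR, was the steadiest of the members within the control group, with 14.4 FPKM in each of the 3 libraries. It measured 10.6, 9.76 and 10.5 FPKM in the Bmi1 shRNA libraries, all well below the control values, and the mean fell to 71.4% of control (log2 fold change -0.45, standard error 0.0545; limma, adjusted p = 0.00102). Its gene (ENSG00000163235.15) lies at chr2:70447280-70554193 on the reverse strand and shares 1111 bases with the intronic gene TGFA-IT1, not analysed here. HBEGF, which binds EGFR and ERBB4 and heparan sulphate, was the least abundant member. It measured 1.36, 1.63 and 2.23 FPKM under the scrambled shRNA and 1.21, 0.960 and 1.07 FPKM under the Bmi1 shRNA. The control libraries differed among themselves by more than the gap between the groups, and the log2 fold change was -0.39 (limma, adjusted p = 0.0357). The call of HBEGF was lost when any 1 library but control replicate 1 was left out (adjusted p up to 0.0993). The same happened with the replicate block (adjusted p = 0.0553) and with no filter on low values (adjusted p = 0.094). Its gene (ENSG00000113070.7) lies at chr5:140332843-140346631 on the reverse strand.

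Of 7 other receptors and ligands of the family with a row in the table, BTC (betacellulin), which binds EGFR and ERBB4, was the 1 that passed the filter, and further ligands are not analysed here. It lies on the same arm of chromosome 4 as AREG and EREG and moved the other way. BTC measured 2.66, 2.19 and 2.09 FPKM under the scrambled shRNA and 3.13, 2.84 and 3.02 FPKM under the Bmi1 shRNA, with a log2 fold change of 0.27 (limma, adjusted p = 0.0283). The call was lost when replicate 2 or 3 of the control, or 1 or 3 of the Bmi1 shRNA, was left out (the largest adjusted p was 0.0882), and its sign turned with the trend in GC content and length removed (log2 fold change -0.12; adjusted p = 0.223). EGF itself was at most 0.0738 FPKM in any library, and EPGN, NRG2, NRG3 and NRG4 stayed at or under 0.0715 FPKM. Among other genes of that chromosome band, MTHFD2L, a mitochondrial folate enzyme, rose from 1.51 ± 0.178 to 2.88 ± 0.113 FPKM and PARM1, a mucin-like membrane protein, fell from 8.73 ± 0.443 to 5.91 ± 0.535 FPKM (SD, n = 3 each). With the trend removed the log2 fold change of MTHFD2L went from 0.63 to 0.04 and was not called (adjusted p = 0.638), while PARM1 was still called. CXCL8, a chemokine, stood at 1.71 and 1.98 FPKM and did not pass (adjusted p = 0.384), but was called lower with the trend removed (log2 fold change -0.70; adjusted p = 0.00228).

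The order of the 8 levels was the same in both groups: AREG, EREG, ERRFI1, TGFA, ERBB3, ERBB2, EGFR and HBEGF. In the control libraries EREG and ERRFI1, at 27.7 ± 1.18 and 25.8 ± 1.69 FPKM, overlapped, and in the Bmi1 shRNA libraries EGFR and HBEGF did, at 1.33 ± 0.216 and 1.08 ± 0.126 FPKM (SD, n = 3 each). All other neighbours in the order were apart in every library of a group. The 4 ligands among the members summed to 321 ± 7.33 FPKM in the control and 310 ± 9.15 FPKM in the Bmi1 shRNA libraries, and these sums overlapped. AREG made up 86.3% ± 0.185 of that sum in the control and 88.4% ± 0.804 in the Bmi1 shRNA libraries (SD, n = 3 each). Set against EGFR, the summed ligands were 126 ± 12.1 times its level in the control and 238 ± 47.4 times in the Bmi1 shRNA libraries. The ratio of AREG to TGFA went from 19.2 ± 0.428 to 26.7 ± 2.20, that of ERBB2 to EGFR from 2.49 ± 0.0788 to 2.97 ± 0.238 and that of ERBB3 to ERBB2 from 1.56 ± 0.0165 to 1.79 ± 0.278. These ratios are descriptions of the deposited values with no test, and were not computed with the trend in GC content and length removed, described next. With it removed, log2 fold changes were -0.43 for AREG, -0.64 for EREG, -0.39 for TGFA and -0.34 for EGFR. AREG then fell no less than TGFA.

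Direction of change in this data set went with the GC content and the length of the transcript, so both are given for the members. The tested genes were divided by GC content into 10 groups of like size, whose median log2 fold change ran from 0.48 in the lowest to -0.24 in the 8th. EREG, at 36.1% GC, lay in the lowest group, where 1.37% of genes were called lower, and ERRFI1, at 43.4%, in the 3rd, where 10.7% were. AREG (45.3%) and TGFA (45.9%) lay in the 4th, EGFR (47.5%) in the 5th, ERBB3 (52.0%) and HBEGF (50.9%) in the 6th and ERBB2 (59.3%) in the 9th. Each of the 8 members lay below the median of its own group, from percentile 0.391 for ERRFI1 and 2.15 for EREG to 48.2 for AREG. In groups by length they also lay below the median of their own group, from percentile 2.83 for ERRFI1 to 46.9 for EREG. AREG, with a transcript of 1240 bases, was the shortest member and EGFR, with 9821 bases, the longest. All these groups use the longest coding transcript of a gene. The median GC content over all transcripts was 51.9% for ERRFI1, 59.1% for TGFA, 54.1% for EGFR and 41.8% for AREG. It differed little for the other members. The places of those named therefore depend on the transcript taken.

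**Figure D2:**
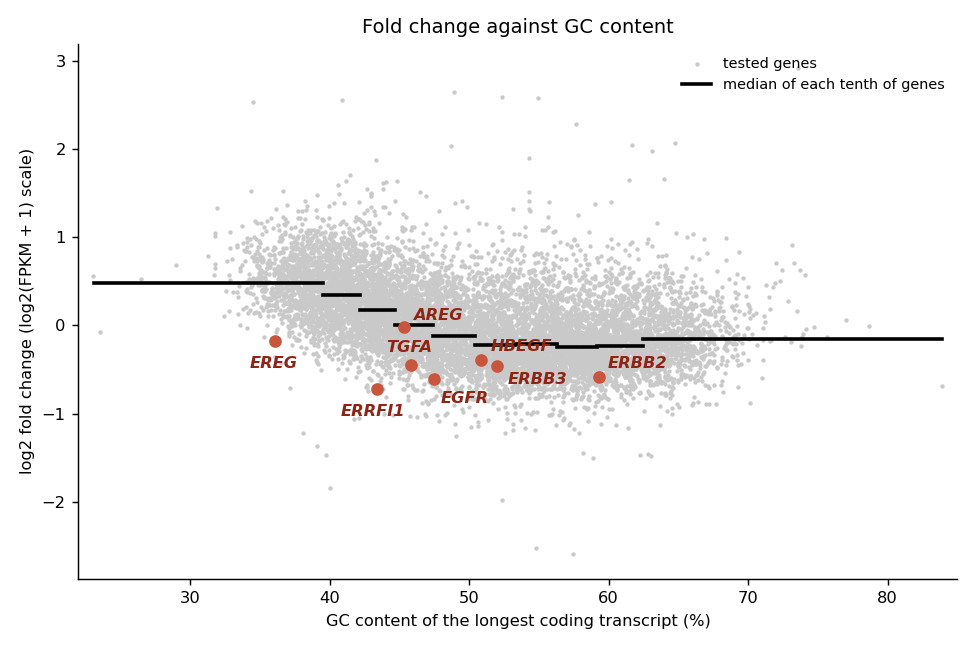
Log2 fold change (vertical axis, log2(FPKM + 1) scale) against the GC content of the transcript in percent (horizontal axis) for singly named tested genes (grey), with the median of each of 10 equal groups by GC content (black bars) and the 8 members (red). Each member lies below the median of its group, with AREG close to it.

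With this trend removed from each library, 6 of 8 members were called lower and 0 higher, against 20.5% and 19.1% of 10225 tested rows (39.7% in all), and the median log2 fold change of the members was -0.36. The fold changes of EGFR and ERBB2 went to -0.34 and -0.22 and were still called (limma, adjusted p = 0.00506 and 0.0158). ERBB2 was not called once the replicate block was added to this fit (adjusted p = 0.059). ERBB3 and HBEGF were not called (log2 fold change -0.09 and -0.23; adjusted p = 0.469 and 0.157). ERRFI1 went to -0.90 and TGFA to -0.39 (adjusted p = 0.000595 and 0.00162), while AREG and EREG went further down. When the median GC content and length of all transcripts of a gene were used instead, 7 were called lower, against 24.9% of tested rows lower and 21.9% higher (46.8% in all), and HBEGF was the exception. ERRFI1, EGFR and TGFA were called in all alternatives that tested them. Whether the trend belongs to the libraries or to the cells was not tested.

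**Figure D3:**
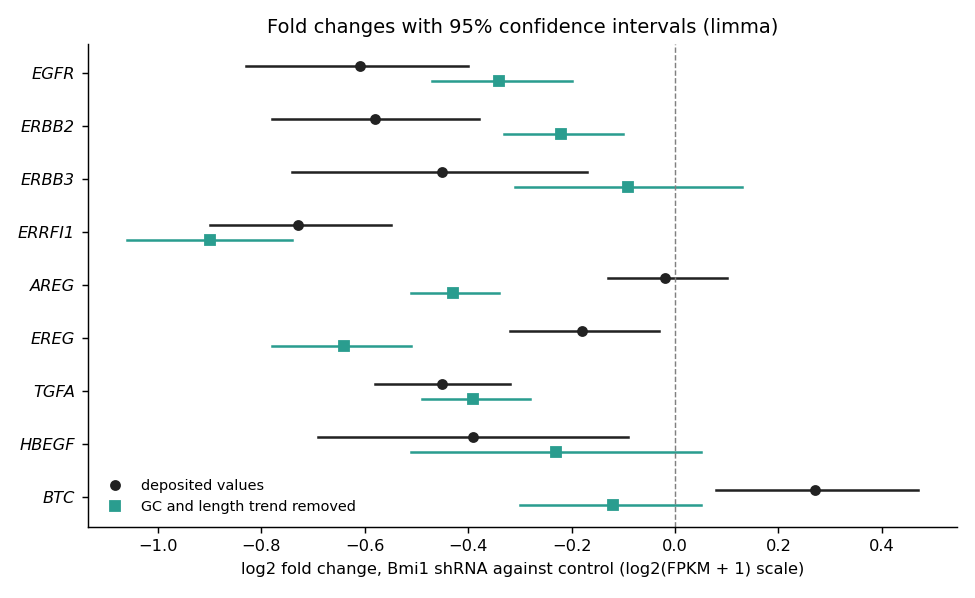
Log2 fold change with its 95% confidence interval (limma) for the 8 members and the ligand BTC, from the deposited values (black circles) and with the trend in GC content and length removed (green squares). The intervals of EGFR, ERBB2, ERRFI1, EREG and TGFA exclude 0 in both versions, while those of AREG, ERBB3, HBEGF and BTC do so in only 1 of them.

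The pathway lists are read against the 28.5% of tested rows called lower and 28.6% called higher. Their counts with the trend in GC content and length removed are read against 20.5% lower and 19.1% higher. For each list the median GC content is given, with the shares called on the deposited values in the GC group that holds it. Of 8 tested genes of ligand shedding, 2 rose, 3 fell and 3 did not pass, with a median log2 fold change of -0.10, shares near those of all rows. The median GC content of the list was 60.8%, and in its GC group 47.0% of genes were called lower and 11.5% higher. The metalloproteases ADAM10 and ADAM9 rose from 1.42 ± 0.0658 to 2.38 ± 0.262 and from 3.69 ± 0.268 to 5.03 ± 0.198 FPKM (n = 3 each, SD; adjusted p by limma = 0.00248 and 0.00437). The rhomboid-like proteins RHBDF1 and RHBDF2, which carry the sheddase ADAM17 to the surface, fell to 57.2% and 66.3% of control (adjusted p = 0.00857 and 0.00399). ADAM17 itself, named here for its role after its values were seen, was under the filter at 0.792 and 0.972 FPKM. With the trend in GC content and length removed 2 were higher, of which 1 (ADAM10) had been so before, and 0 lower, ADAM9 turned sign (log2 fold change -0.02) and neither RHBDF1 nor RHBDF2 was called (adjusted p = 0.0599 and 0.195). ADAM10 was not called with the replicate block added to that fit (adjusted p = 0.065) or with medians over transcripts (0.909).

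Of 16 tested adaptors and members of the RAS to ERK relay, 3 rose, 6 fell and 7 did not pass, with a median of -0.02. The median GC content of the list was 50.8%, and in its GC group 46.3% of genes were called lower and 14.7% higher. SHC1, the adaptor that docks on the phosphorylated receptors, fell from 21.4 ± 0.714 to 12.7 ± 1.03 FPKM (n = 3 each, SD; adjusted p by limma = 0.000576). NRAS, a RAS gene, rose 1.59-fold (adjusted p = 0.000719). At 38.4% GC, it went to a log2 fold change of 0.20 after removal of the trend and was called (adjusted p = 0.0334), but not with the replicate block added (0.0621). The list then held 3 higher and 4 lower, of which 2 and 2 had been so before. None of 8 tested genes of the PI3K to AKT relay was called (limma), with a median of -0.00, and 1 was higher with the trend removed. The median GC content of these genes was 48.9%, and in that GC group 35.3% of genes were called lower and 18.3% higher.

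Other kinases and STATs that the receptors engage had 8 of 12 tested genes that fell, 2 that rose and 2 that did not pass, with a median log2 fold change of -0.40. The median GC content of the list was 51.1%, and in the GC group that holds it 46.3% of genes were called lower and 14.7% higher. CRKL, an adaptor, fell from 37.5 ± 1.57 to 24.2 ± 1.44 FPKM, and the kinases SRC and FYN from 29.7 ± 1.65 to 19.7 ± 1.18 and from 6.43 ± 0.255 to 4.36 ± 0.111 FPKM (n = 3 each, SD; adjusted p by limma = 0.000651, 0.000986 and 0.000968). STAT3, a transcription factor that receptors activate, fell to 71.0% of control (adjusted p = 0.00126). After removal of the trend the list held 4 lower and 0 higher. Of the 8 that fell, 3 were still lower (SRC, FYN and CRKL), and the other was NCK1, an adaptor named here after its values were seen, which turned from 0.31 to -0.33. STAT3 was then not called (adjusted p = 0.115).

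Of 20 tested genes of receptor endocytosis and degradation, 5 rose, 8 fell and 7 did not pass, with a median of -0.12. HGS, which sorts ubiquitinated receptors to the lysosome, fell to 66.8% of control, AP2A1, of the clathrin adaptor, to 70.5% and EPN2, an epsin, to 45.3% (limma, adjusted p = 0.00176, 0.00243 and 0.00223). RAB11A, which returns receptors to the surface, rose 1.41-fold (adjusted p = 0.00147) but its log2 fold change was 0.06 after removal of the trend (adjusted p = 0.484). EPN2 was then not called either (adjusted p = 0.0625), and the list held 2 higher and 3 lower, of which 1 and 3 had been so before. AP2A1 was not called with the replicate block added to that fit (adjusted p = 0.0902). With the replicate block 2 were higher and 5 lower.

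Among 10 other tested inhibitors of the receptors, 3 rose and 2 fell, with a median of 0.03. The median GC content of the list was 42.3%, and in its GC group 10.7% of genes were called lower and 42.5% higher. LRIG1, which promotes the loss of ERBB receptors, fell from 3.14 ± 0.137 to 1.98 ± 0.150 FPKM, and the phosphatase PTPN1 from 20.9 ± 0.647 to 14.2 ± 1.58 FPKM (n = 3 each, SD; adjusted p by limma = 0.00159 and 0.00243). PTPN2 and SOCS4 rose 1.71-fold and 1.63-fold (adjusted p = 0.00219 and 0.00581). With the trend removed 1 was higher, which had not been called before, and 2 were lower, of which 1 (PTPN1) had fallen before. The other was SOCS5, named here after its values were seen, which turned from 0.21 to -0.20. LRIG1, PTPN2 and SOCS4 were not called (adjusted p = 0.151, 0.0969 and 0.709), and SOCS4 turned sign.

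Of 18 tested genes that ERK signalling is known to raise, 11 fell, 0 rose and 7 did not pass, with a median log2 fold change of -0.32. The median GC content of the list was 51.8%, and in its GC group 46.3% of genes were called lower and 14.7% higher. CCND1, a cyclin of G1, fell from 20.2 ± 0.425 to 10.9 ± 0.314 FPKM and EPHA2, an ephrin receptor, from 34.9 ± 0.848 to 17.7 ± 1.70 FPKM (n = 3 each, SD; adjusted p by limma = 0.000247 and 0.000332). DUSP5, a phosphatase of ERK, and EGR1, an immediate early transcription factor, fell to 63.6% and 63.4% of control (adjusted p = 0.000632 and 0.000662). After removal of the trend the list held 8 lower, all of which had fallen before, and 2 higher, against 20.5% and 19.1% of all tested rows. CCND1, EPHA2, DUSP5 and EGR1 were among the 8 called lower. The 2 called higher were SPRY4 and ETV4, at log2 fold changes of 0.17 and 0.18 (limma, adjusted p = 0.0344 and 0.0256). Neither had been called before, and both are named here after their values were seen. ERRFI1 itself is a gene of this kind but was counted with the members only.

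**Figure D4:**
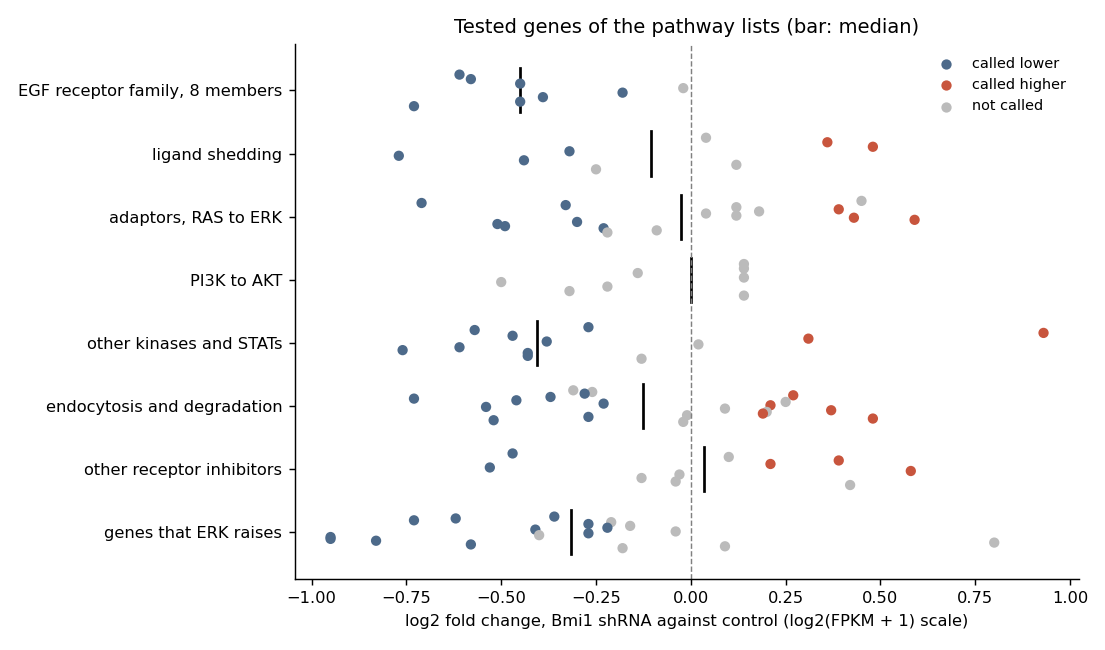
Log2 fold change (horizontal axis, log2(FPKM + 1) scale) of each tested gene (point) of the 8 members and of 7 pathway lists, coloured by limma's call, with the median of each list as a black bar. The medians run from -0.45 for the members to 0.03 for the other receptor inhibitors.

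Genes with the pattern most like that of a member were sought over the 6 libraries, by the Euclidean distance between values of log2(FPKM + 1) after subtraction of each gene's control mean, among 10551 other singly named genes. For EGFR they were ABCA2 (distance 0.0387), ZNF783 (0.0492) and AHDC1 (0.0505), which went from 10.1 to 6.19, from 6.45 to 3.95 and from 2.97 to 1.64 FPKM. For ERRFI1 they were MYO19 (0.0779), CDH3 (0.0852) and ZNF24 (0.0859). These went from 7.69 to 4.28, from 9.97 to 5.84 and from 1.52 to 0.541 FPKM. Because of the pseudocount of 1, genes of unlike level can be near on this scale though their falls in percent differ. Near EGFR on chromosome 7, SEC61G, of the protein channel of the endoplasmic reticulum, rose from 69.0 ± 9.20 to 113 ± 6.62 FPKM and LANCL2 fell from 5.97 ± 0.0534 to 4.80 ± 0.365 FPKM (n = 3 each, SD; adjusted p by limma = 0.0019 and 0.0128). VOPP1, at 19.3 and 18.2 FPKM, did not pass. LANCL2, at a log2 fold change of 0.01, was not called after removal of the trend, and with medians over transcripts SEC61G was not called (log2 fold change 0.0978; adjusted p = 0.414).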

How the data were processed

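Poly(A) RNA of 6 libraries was sequenced, 3 per group, per the labels' protocols, which also name adipose material that none of these samples is. The table's columns are abbreviated Sc and Sh with a number and were matched to the scrambled and the Bmi1 shRNA by the numbers in the sample titles. The authors deposited FPKM. The submitters' processing notes list StringTie 1.3.0, HISAT2 2.0 and Bowtie 0.12.2 without saying what each did, and name the build as mm8, a mouse build, although 19870 of 27238 row names are human symbols, so the build used is not settled. The annotation and strand setting are not given in the sources used here. Positions come from GENCODE 29 (GRCh38) and promoters from RefSeq (GRCh38.p14).

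Depth is unknown: the commonest ratio between a library and control replicate 1 covered no more than 1.18% of 1787 low rows, and no count test could be used. FPKM are relative to a library and do not show total mRNA per cell.

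Differences were tested by limma 3.58.1 (R 4.3.3) on log2(FPKM + 1), with group as the sole term and a trended eBayes prior, over 11016 rows whose mean reached 1 FPKM. A row was called where its p, adjusted by Benjamini-Hochberg, was under 0.05, and 3143 rows were called lower and 3152 higher. Rows with a repeated name (3646 in the table) were tested but not named. The GC content and length of the longest coding transcript (or the longest, where none is coding) could be had for 92.8% of tested rows. The trend was fitted in each library, as natural splines with 5 degrees of freedom per covariate on deviations from gene means, and subtracted, which also removes any true change that goes with them. The version with medians over transcripts was added after seeing the data. The other alternatives were the pseudocount, the filter, scaling, the variance prior, library weights, the replicate block and each library left out. Only the main fit was tested on simulated data, with 200 rows changed by known amounts, far fewer than were called in the real data. The trend removal and the other alternatives were not tested in this way. The members and lists were chosen with earlier results of these data known. The genes named are the members, up to 4 called genes with the smallest p in each list, the listed chromosome neighbours, and, for likeness, the 3 nearest genes of EGFR and of the members with the largest rise (none rose) and fall. Some genes that the rule names are not reported here. Genes named outside this rule are so only as examples of values that did not pass, as markers or where the text says that their values were seen first.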

Additional observations from a re-analysis of the deposited data

How the results depend on the processing

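Depth could not be read from the files, 3 libraries per group limit the precision, and HBEGF and EGFR lie close to the filter. The same order of the 8 control levels was found under all scalings and with each control library left out. Fold changes of BMI1, EGFR, TGFA and ERRFI1 kept their direction and call under every alternative that tested them. The cause of the changes below was not tested, except that the filter at 5 FPKM removes genes from the test.

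The replicate numbers did not pair the libraries: the correlations of same-numbered deviations over tested genes were 0.004, -0.079 and -0.023. With the replicate block EREG (log2 fold change -0.18; limma, adjusted p = 0.0598) and HBEGF (-0.39; 0.0553) were not called and 5 members were called lower, with 2788 tested rows lower and 2870 higher. PI3K to AKT genes had 1 lower, and endocytosis genes 2 higher and 5 lower.

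With the trend in GC content and length removed, AREG was called (log2 fold change -0.43) and ERBB3 (-0.0908) and HBEGF (-0.23) were not. Of 10225 tested rows, 1957 were higher and 2100 lower. Lists then had 0 lower for shedding, 1 higher for PI3K to AKT, 0 higher and 4 lower for other kinases, 2 higher and 3 lower for endocytosis, 1 higher for other inhibitors and 2 higher for ERK-raised genes. With the replicate block added to that fit, AREG (-0.43; adjusted p = 0.0102) was called and ERBB2 (-0.22; 0.059), ERBB3 (-0.0908; 0.506) and HBEGF (-0.23; 0.192) were not, with 1573 tested rows higher and 1568 lower. Lists then had 0 higher and 1 lower for shedding, 0 and 2 for RAS to ERK, 1 higher for PI3K to AKT, 0 and 4 for other kinases, 2 and 2 for endocytosis and 0 and 1 for other inhibitors. With medians over transcripts, AREG had -0.40 and HBEGF -0.28 (limma, adjusted p = 0.000957 and 0.0845), with 2237 tested rows higher and 2549 lower. Lists then had 0 higher for shedding and other kinases and 2 lower for PI3K to AKT. Endocytosis and other inhibitors had 1 higher each, and ERK-raised genes had 2 higher. In these 3 fits signs turned for BTC (-0.12, -0.12 and -0.15), ADAM9 (-0.0161, -0.0161 and -0.0283) and CXCL8 (-0.70, -0.70 and -0.49). In the first 2 they also turned for SOCS4 (-0.0326), LANCL2 (0.0128), PARK7 (-0.15) and RERE (0.011).

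EREG was not called with no filter (-0.18), upper quartile scaling (-0.13), an untrended prior (-0.18; adjusted p = 0.0536) or library weights (-0.16; 0.0504). HBEGF was not called with no filter (-0.39). AREG was called with quantile normalization (-0.15). With no filter 3 of 21 tested RAS to ERK and 5 of 16 tested other kinase genes were lower. Higher were 1 of 12 PI3K to AKT and 1 of 20 ERK-raised genes, and of all 27238 rows 2942 were lower and 3439 higher. At a mean of 5 FPKM 1631 tested rows were higher and 1847 lower. Lists then had 0 of 4 tested genes higher for shedding, 1 of 3 lower for PI3K to AKT and 1 of 9 higher for other kinases. Endocytosis had 2 of 14 higher, and other inhibitors, with 3 tested, had 0 higher and 1 lower. PI3K to AKT had 1 higher with upper quartile scaling and 1 lower with total scaling or library weights, and total scaling gave 2 higher for endocytosis.

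Leaving out 1 library at a time gave fold changes from -0.54 to -0.33 for ERBB3, -0.21 to -0.14 for EREG and -0.49 to -0.26 for HBEGF. Of the members, 4 to 6 were called lower, with 2484 to 3140 of all tested rows lower and 2724 to 2982 higher. PI3K to AKT genes had 0 to 1 lower (1 without control replicate 2 or Bmi1 shRNA replicate 3), other kinases 5 to 7 lower (5 without Bmi1 shRNA replicate 2), and endocytosis genes 2 to 4 higher (2 when Bmi1 shRNA replicate 3 or control replicate 1 or 3 was left out) and 5 to 7 lower (5 without control replicate 2).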
